A study of Drosophila melanogaster with 15 samples.

Results

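Larval serum storage proteins were followed in heads of adult male flies given amphetamine (AMPH) or vehicle. The genes were chosen by name, as *Lsp1beta*, *Lsp1gamma*, *Lsp2* and *Fbp1*. They were selected with the low level of *Lsp1beta* after AMPH in these libraries already known, so every value of these genes that rests on AMPH libraries, the difference between the strains' responses included, is a description with no test. Tests of these genes were kept for the strains on vehicle. Of the 4 names, 2 had a row in the table, *Lsp1beta* and *Lsp2*, with 1 transcript each among 18960 transcripts of 11257 genes. *Lsp1gamma* and *Fbp1* were not analysed here.

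Hexamerins are large proteins of the insect haemolymph that belong to the same superfamily as the arthropod hemocyanins and prophenoloxidases. The larval fat body, an organ with roles like those of liver and adipose tissue, makes them in great quantity late in larval growth, and they are taken back up around pupariation with the help of the receptor-like protein encoded by *Fbp1*, as a store of amino acids for metamorphosis. *Lsp1beta* encodes a subunit of larval serum protein 1, whose other subunits come from *Lsp1alpha* and *Lsp1gamma*. *Lsp2* encodes larval serum protein 2, which is also made in adults. Fat body tissue lies around the brain inside the adult head.

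WT flies were of an isogenic *w1118* strain, and *DAT* mutants carried the *dDATfmn* allele of the dopamine transporter gene, a transposon fragment in an intron, after backcrossing to *w1118*. Both strains were 7 days old when males were placed singly for 48 h on food of 1% agar and 3% sucrose in water, without drug (vehicle) or with 10 mM AMPH. Each library came from 1 fly. There were 3 libraries of the *DAT* mutant on AMPH and 4 in each other group. The labels name both adult head and brain as the source, and fat body, photoreceptor and muscle genes were present in every library, so the libraries did not hold brain alone. Values are RPKM, in which reads are divided by the length of the transcript and by the depth of the library. The smallest steps between low values put that depth at 11.1 M to 77.7 M reads.

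A pair of libraries stood apart. *DAT* mutant vehicle replicate 2 had a median of 9.59 RPKM over all transcripts, against 15.6 to 18.1 in the other 14, and its levels ranked less like those of its own group (Spearman correlation under that of any other library, for which the best match was 0.968 or more). WT vehicle replicate 1 was low in fat body genes, as described below. The study's group means leave both out. The main comparisons therefore used 13 libraries, and values with all 15 are given beside them. The *DAT* transcript itself ranged from 2.18 to 3.12 RPKM in WT vehicle and from 1.98 to 2.37 in *DAT* mutant vehicle, which did not pass the test (limma, adjusted p = 0.557), so its level does not check the strain labels.

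*Lsp1beta* reached the highest level of the storage protein transcripts. Its gene (FBgn0002563, transcript FBtr0078025) lies on the plus strand of chromosome 2L at 898647 to 901320 in dm3, and its transcript model has 2 exons. In WT vehicle, *Lsp1beta* was at 0.454, 34.5, 20.5 and 23.5 RPKM in replicates 1 to 4. In WT AMPH it was at 0.642, 0.747, 1.58 and 1.05 RPKM. Every WT AMPH library was below replicates 2, 3 and 4 of WT vehicle, and every one was above replicate 1. In *DAT* mutant vehicle, *Lsp1beta* was at 129.6, 30.2, 141.8 and 29.1 RPKM, and in *DAT* mutant AMPH at 0.816, 1.24 and 0.449 RPKM. The *DAT* mutant groups did not overlap, with or without replicate 2 of the vehicle group. In 2 of the *DAT* mutant vehicle libraries *Lsp1beta* was above 92.7% and 94.3% of all transcripts of the same library, and in *DAT* mutant AMPH it was above 3.55% to 9.37% of them.

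The mean level of *Lsp1beta* was 26.2 ± 7.385 RPKM (SD, n = 3) in WT vehicle and 1.01 ± 0.421 RPKM (SD, n = 4) in WT AMPH, 26.05-fold lower. On the log2(RPKM + 1) scale, which understates differences at low levels, this was -3.75 (SE 0.21) with 13 libraries and -2.70 (SE 0.87) with 15. In the *DAT* mutant, the means were 100.2 ± 61.8 RPKM (SD, n = 3) on vehicle and 0.834 ± 0.395 RPKM (SD, n = 3) on AMPH, a ratio of 120.1, and the log2 difference was -5.51 (SE 0.52) with 13 libraries and -5.16 (SE 0.61) with 15. By size, the *Lsp1beta* difference was the third lowest of 17584 transcripts in WT and the lowest of 17483 in the *DAT* mutant.

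*Lsp2* was lower than *Lsp1beta* in every vehicle library. Its gene (FBgn0002565, transcript FBtr0089324) lies on the plus strand of chromosome 3L at 12122493 to 12124796 in dm3 and has 1 exon. In WT vehicle, *Lsp2* was at 0.028, 8.45, 7.37 and 1.41 RPKM in replicates 1 to 4, where the first value corresponds to about 5.01 reads. In WT AMPH it was at 0.860, 1.69, 8.24 and 1.81 RPKM. The WT groups overlapped, since replicate 3 of WT AMPH was as high as the 2 highest vehicle libraries and replicate 4 of WT vehicle was as low as the other AMPH libraries. In *DAT* mutant vehicle, *Lsp2* was at 8.88, 11.6, 19.9 and 6.56 RPKM. In *DAT* mutant AMPH it was at 0.425, 0.467 and 0.737 RPKM, below every *DAT* mutant vehicle library.

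The mean of *Lsp2* was 5.74 ± 3.79 RPKM (SD, n = 3) in WT vehicle and 3.15 ± 3.42 RPKM (SD, n = 4) in WT AMPH, with a log2 difference of -0.77 (SE 0.62) with 13 libraries and -0.15 (SE 0.75) with 15. In the *DAT* mutant, it was 11.8 ± 7.10 RPKM (SD, n = 3) on vehicle and 0.543 ± 0.169 RPKM (SD, n = 3) on AMPH, 21.7-fold lower, with a log2 difference of -2.91 (SE 0.33) with 13 libraries and -2.95 (SE 0.34) with 15. That difference was the fifth lowest of 17483 transcripts in the *DAT* mutant, whereas in WT *Lsp2* stood at place 775 from the lowest of 17584.

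**Figure D1:**
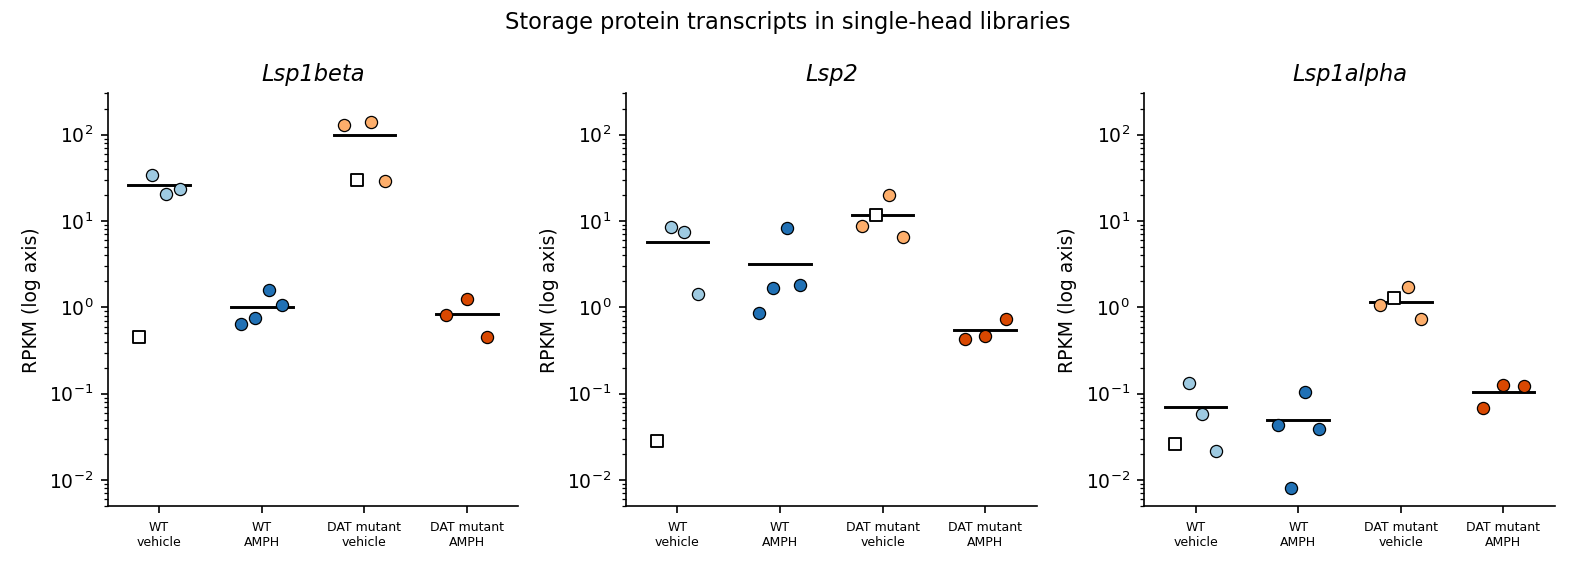
RPKM (log axis) of *Lsp1beta*, *Lsp2* and the related *Lsp1alpha* in each of the 15 libraries by group. Bars are means over the 13 libraries used, and white squares are the other 2 libraries (replicate 1 of WT vehicle, replicate 2 of *DAT* mutant vehicle). *Lsp1beta* lies between 0.449 and 1.58 RPKM in all 7 AMPH libraries, and *Lsp2* in WT overlaps between vehicle and AMPH.

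Counted over both transcripts, WT AMPH lay wholly below WT vehicle for 1 of 2 with 13 libraries and for 0 of 2 with 15. Of all transcripts tested, 19.7% and 17.6% did so. In the *DAT* mutant, both transcripts were lower in every AMPH library with 13 and with 15 libraries, where 24.8% and 6.03% of all transcripts were. As the AMPH contrast was known when the genes were chosen, nothing is read from these counts.

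The 2 transcripts did not move in a fixed proportion. The ratio of *Lsp1beta* to *Lsp2* in RPKM ranged from 2.78 to 16.7 in WT vehicle and from 0.192 to 0.747 in WT AMPH, without overlap. In the *DAT* mutant it ranged from 2.60 to 14.6 on vehicle and from 0.609 to 2.65 on AMPH, with 1 AMPH library above the lowest vehicle library.

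The strains were compared on the same food. This comparison cannot tell the transporter gene apart from other differences between the strains. On vehicle, the group mean of *Lsp1beta* was 3.82-fold that of WT in the *DAT* mutant, a log2 difference of 1.64 (SE 0.54), which did not pass the threshold of 0.1 (limma, adjusted p = 0.141, unadjusted p = 0.0162). With 15 libraries the log2 difference was 2.33 (adjusted p = 0.491). Among the 13 libraries, those of the *DAT* mutant on vehicle were at 129.6, 141.8 and 29.1 RPKM, the last inside the WT range of 20.5 to 34.5 RPKM. Of the libraries left out, *DAT* mutant vehicle replicate 2 was at 30.2 RPKM and WT vehicle replicate 1 at 0.454 RPKM. The call turned on *DAT* mutant vehicle replicate 4: without it, the log2 difference was 2.36 (SE 0.21, adjusted p = 0.00277). In a fit of all 4 groups together it was 1.64 (SE 0.46, adjusted p = 0.0629). That fit takes its spread partly from the AMPH libraries, so nothing is read from its pass. For *Lsp2* on vehicle, the log2 difference was 1.01 (SE 0.55, adjusted p = 0.364) with 13 libraries and 1.66 (adjusted p = 0.471) with 15. Thus 0 of 2 transcripts passed in limma, where 8.45% of all transcripts passed. At an unadjusted p under 0.05 there was 1 of 2, where 3382 of 17487 transcripts were under it.

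On AMPH, the log2 difference of *Lsp1beta* between *DAT* mutant and WT was -0.13 (SE 0.21). *Lsp2* was at 0.425 to 0.737 RPKM in *DAT* mutant AMPH and 0.860 to 8.24 RPKM in WT AMPH, a log2 difference of -1.13 (SE 0.47). The share of all transcripts that separate the strains in this way was not counted.

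The difference between the AMPH responses, that of WT minus that of the *DAT* mutant, was 1.76 (SE 0.63) for *Lsp1beta* and 2.14 (SE 0.81) for *Lsp2*. With 15 libraries the values were 2.46 (SE 1.18) and 2.80 (SE 0.92). Without *DAT* mutant vehicle replicate 4, the value of *Lsp1beta* was 2.49 (SE 0.32).

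**Figure D2:**
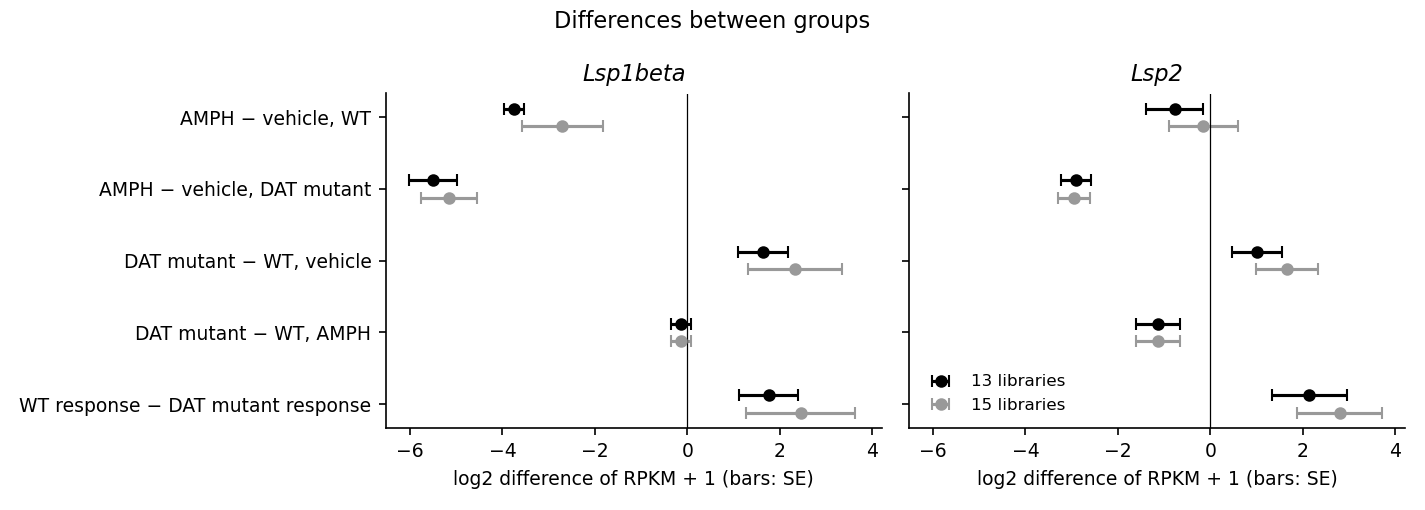
Log2 differences of RPKM + 1 for *Lsp1beta* and *Lsp2* in each comparison, with SE bars, from 13 libraries (black) and all 15 (grey). The AMPH difference of *Lsp1beta* in WT is -3.75 with 13 libraries and -2.70 with 15, and those in the *DAT* mutant are -5.51 and -5.16.

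*Lsp1alpha*, which encodes the alpha subunit of larval serum protein 1, was the nearest relative in the table. Its gene (FBgn0002562, transcript FBtr0073651) lies on the plus strand of chromosome X at 12384416 to 12386933 in dm3. It was at 0.026, 0.132, 0.059 and 0.022 RPKM in WT vehicle and between 0.008 and 0.106 RPKM in WT AMPH, about 1.04 to 22.9 reads per library. The *DAT* mutant vehicle libraries held 1.06, 1.29, 1.71 and 0.734 RPKM of it, about 19.97 to 122.1 reads, and in *DAT* mutant AMPH at 0.068, 0.125 and 0.122 RPKM. All 4 *DAT* mutant vehicle libraries were thus above all other 11 libraries, and the share of all transcripts with this pattern was not counted. The vehicle mean of the *DAT* mutant was 16.5-fold that of WT with 13 libraries and 20.1-fold with 15. The transcript was too low to enter the strain fits across all transcripts, so these values carry no test.

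The subunits of larval serum protein 1 are similar in sequence, and how reads shared between them were counted is not given in the sources used here. The RPKM of *Lsp1alpha* was 0.0934% to 27.2% of that of *Lsp1beta* over the 15 libraries, so the transcripts did not stay in 1 ratio. The prophenoloxidases of the same superfamily make melanin in wound and immune responses. *PPO1* fell in WT by 1.04 on the log2 scale (SE 0.24, limma, adjusted p = 0.0265), from 1.93 to 4.44 RPKM in WT vehicle to 0.752 to 1.56 in WT AMPH, and was too low to be tested in the *DAT* mutant after AMPH. *PPO2*, the only relative tested there, did not pass (log2 difference -0.38, SE 0.14, adjusted p = 0.117). *PPO2* ranged from 3.93 to 21.5 RPKM and *PPO3* from 0.038 to 1.12 RPKM over the 15 libraries.

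As these proteins are known from fat body, 22 genes known from that tissue were set beside them, of which 20 were in the table. Each gene of this and the other lists was followed by 1 transcript, that with the highest mean RPKM, though many genes had several. In bulk RNA, fewer fat body cells and less RNA per cell cannot be told apart. After AMPH in WT, 3 of 20 rose and 5 fell with 13 libraries, where 22.0% of all transcripts passed. Over 1 transcript per gene, 1776 of 10032 passed. With 15 libraries, 4 rose and 4 fell, where 5167 of 17464 transcripts passed. The median log2 difference was -0.05 for the list and -0.07 for all transcripts. *apolpp*, which encodes the precursor of the lipid carrier lipophorin, fell by 2.68 (SE 0.28, adjusted p = 0.001305). *Tsf1*, an iron carrier of the haemolymph, fell by 1.47 (SE 0.17, adjusted p = 0.00182). *Gpdh1*, a glycerol 3-phosphate dehydrogenase, fell by 1.23 (SE 0.12, adjusted p = 0.000880). *Gnmt*, which encodes the glycine N-methyltransferase that uses up S-adenosylmethionine, rose by 5.18 (SE 0.60, adjusted p = 0.00188).

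After AMPH in the *DAT* mutant, 6 of 20 fat body genes rose and 7 fell with 13 libraries, where 22.1% of all transcripts passed. Over 1 transcript per gene, 1903 of 9952 passed. With 15 libraries, 2 rose and 4 fell, where only 258 of 17555 transcripts passed. The median was -0.21 for the list and -0.08 for all transcripts. *Pepck1*, an enzyme of gluconeogenesis, fell by 5.47 (SE 0.45, adjusted p = 0.000398), the value nearest to that of *Lsp1beta*. *apolpp* fell by 2.90 (SE 0.28), *Tsf1* fell by 1.69 (SE 0.18) and *Gnmt* rose by 4.27 (SE 0.43). On vehicle, with 13 libraries, 1 fat body gene was higher in the *DAT* mutant and 2 were higher in WT, where 8.45% of all transcripts passed. Over 1 transcript per gene, 736 of 9944 passed. None of the fat body genes passed with 15 libraries, where 189 of 17436 transcripts did. That count of 3 was 1 without WT vehicle replicate 3 (800 of 17641 transcripts passing) and 1 without *DAT* mutant vehicle replicate 4 (570 of 17659). On AMPH, 1 of 20 was lower in the *DAT* mutant and none was higher, where 5.54% of all transcripts passed.

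**Figure D3:**
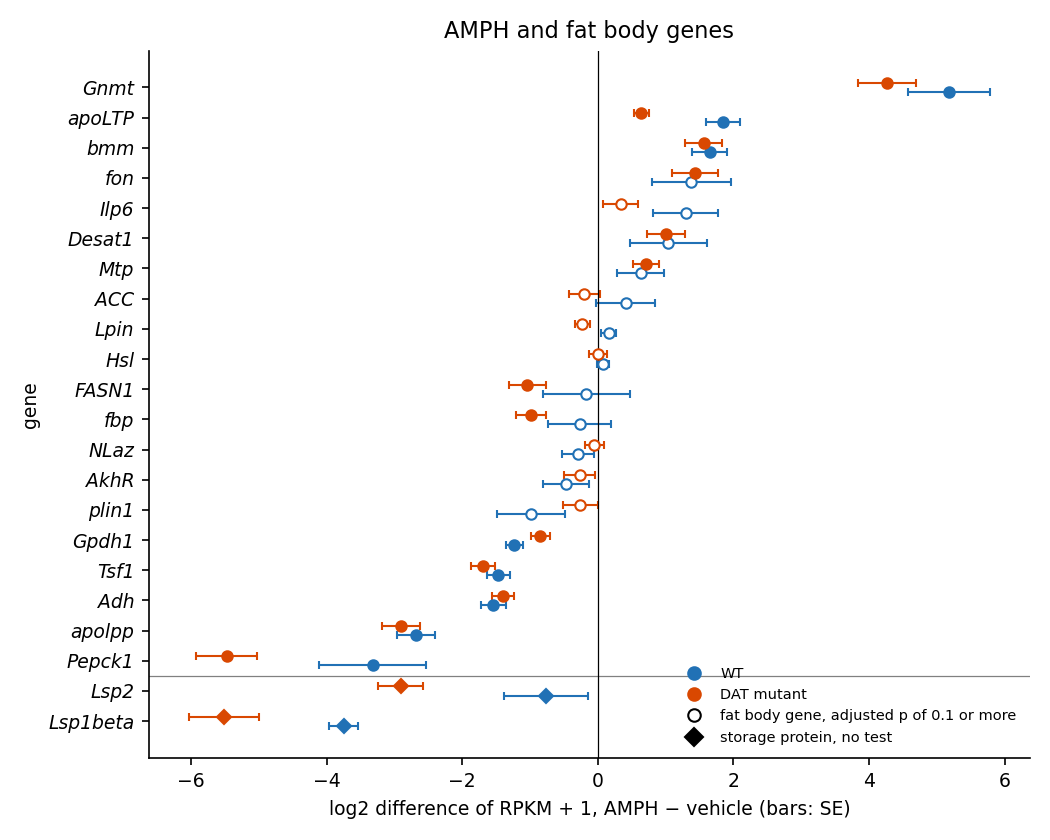
Log2 differences of RPKM + 1 between AMPH and vehicle for the 20 fat body genes (circles, filled where the adjusted p is under 0.1) and for *Lsp1beta* and *Lsp2* (diamonds, no test), with SE bars, in WT (blue) and *DAT* mutant (orange), from 13 libraries. *Gnmt* rose in both strains and *apolpp* fell in both, beside *Lsp1beta* at -3.75 and -5.51.

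The mean of log2(RPKM + 1) over the 20 fat body genes was 5.88 to 6.31 in WT vehicle, 5.49 to 6.63 in WT AMPH, 6.03 to 6.54 in *DAT* mutant vehicle and 5.98 to 6.26 in *DAT* mutant AMPH, over 13 libraries. These ranges overlapped between AMPH and vehicle in both strains. The mean mixes genes that rose with genes that fell after AMPH, so it does not measure the amount of fat body there. Each library was also centred on that mean, an alternative chosen after the data were seen. The log2 difference of *Lsp1beta* between AMPH and vehicle was then -3.81 (SE 0.29) in WT and -5.25 (SE 0.86) in the *DAT* mutant. Uncentred, it was -3.75 and -5.51. For *Lsp2* the centred values were -0.83 (SE 0.63) in WT and -2.65 (SE 0.62) in the *DAT* mutant.

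WT vehicle replicate 1, where *Lsp1beta* and *Lsp2* were lowest among WT vehicle libraries, had a fat body mean of 4.41, below every other library. In it, 18 of the 20 fat body genes were below all 3 other WT vehicle libraries, as were 23.8% of all transcripts. The median ratio to the mean of those 3 libraries was 0.437 for the fat body genes and 0.990 for all transcripts. The genes named next were chosen after their values were seen. *AkhR*, the receptor of the fat-mobilising adipokinetic hormone, was at 0.897 RPKM there and at 24.4 to 39.9 RPKM in the other WT vehicle libraries, and *apolpp* at 9.95 RPKM against 61.3 to 128.2. *Gnmt* was at 0.468 RPKM against 14.3 to 22.5. In WT AMPH, *AkhR* was at 12.4 to 38.6 RPKM and *Gnmt* at 277.9 to 1649 RPKM, so replicate 1 of WT vehicle lay below the AMPH range of both. For *apolpp* it lay inside the AMPH range of 8.87 to 15.8 RPKM, and *Pepck1*, at 3.07 RPKM, was inside the AMPH range of 2.99 to 29.4 RPKM. Of the other lists, 0 of 5 neuron genes, 0 of 5 muscle genes, 1 of 5 photoreceptor genes and 2 of 5 glial genes were below the other WT vehicle libraries there. The part of the fat body level in the result for this library was not tested.

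**Figure D4:**
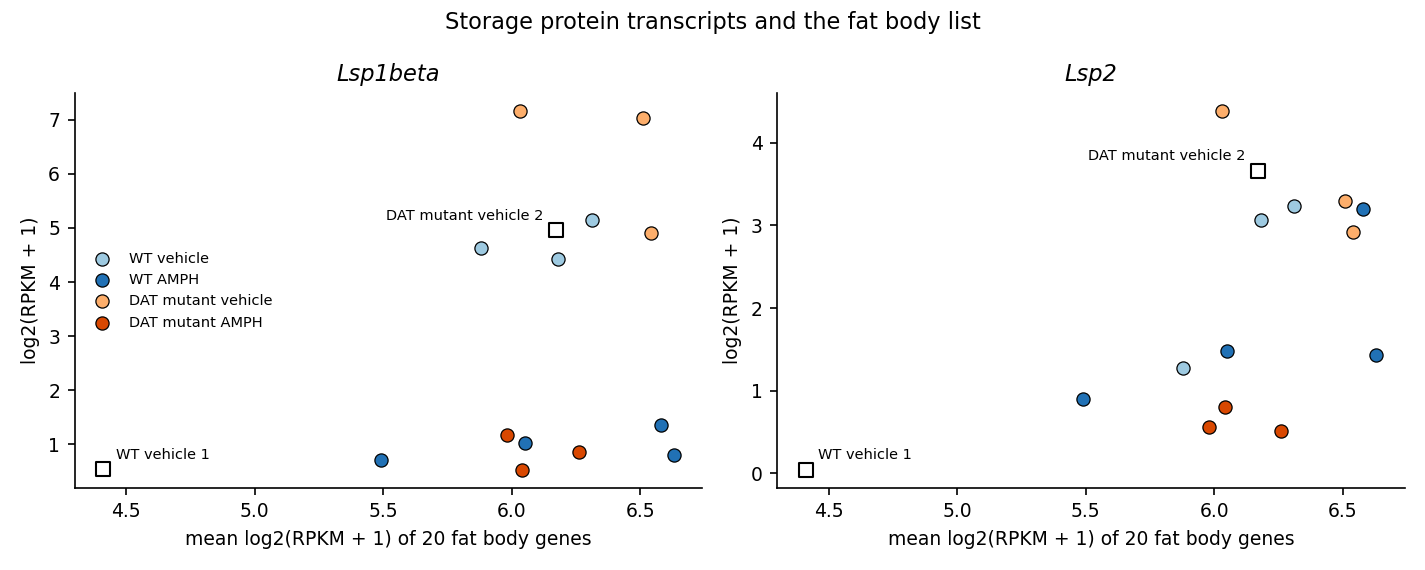
Log2(RPKM + 1) of *Lsp1beta* and *Lsp2* in each library against the mean log2(RPKM + 1) of the 20 fat body genes. White squares are the libraries left out of the 13; WT vehicle replicate 1 lies apart at 4.41, and the 7 AMPH libraries lie between 5.49 and 6.63, with low *Lsp1beta*.

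Some genes of other tissues in the head also differed between the groups. The 5 muscle genes summed to 628 to 892 RPKM in WT vehicle, 435 to 512 in WT AMPH, 257 to 573 in *DAT* mutant vehicle and 406 to 457 in *DAT* mutant AMPH, and none was at 0. The value of 257 was that of the left-out *DAT* mutant vehicle replicate 2, and the next lowest of that group was 443. Of the 5, 2 fell after AMPH in each strain with 13 libraries, where 22.0% of all transcripts passed in WT and 22.1% in the *DAT* mutant. On vehicle 4 were lower in *DAT* mutants with 13 libraries and 1 with 15, where 8.45% of all transcripts passed with 13 and 189 of 17436 with 15. The 5 glial genes summed to 170 to 243 RPKM in WT AMPH and 220 to 260 in WT vehicle. In the *DAT* mutant they summed to 150.3 to 164.8 RPKM on AMPH and 109.4 to 237.5 on vehicle, the lowest again in replicate 2. With 13 libraries, 1 of them fell after AMPH in WT and 4 in the *DAT* mutant. With 15 libraries, none of the muscle, glial, neuron or photoreceptor genes passed between AMPH and vehicle in the *DAT* mutant. Of all transcripts, 258 of 17555 passed there. In WT with 15 libraries, 3 muscle, 2 glial and 2 neuron genes and 1 photoreceptor gene fell, where 5167 of 17464 transcripts passed. *Yp3*, a yolk protein gene made by fat body in females and the only female marker above the filter between strains, was at 38.1 to 113.3 RPKM in WT vehicle and 13.4 to 17.9 RPKM in *DAT* mutant vehicle. It was lower in the *DAT* mutant, with log2 differences of -2.01 on vehicle (SE 0.34, limma, adjusted p = 0.01745) and -1.69 on AMPH (SE 0.14, adjusted p = 0.000592), also with 15 libraries (adjusted p = 0.0262 on vehicle). The part of these genes in the storage protein differences was not tested.

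Genes known to act on storage protein genes, or on the ecdysone and juvenile hormone responses that time them in larvae, were counted as a list of 14, of which 13 were tested. After AMPH, 1 rose and 2 fell in WT, and 1 rose and 3 fell in the *DAT* mutant with 13 libraries, where 22.0% and 22.1% of all transcripts passed. With 15 libraries, none of the 13 passed in the *DAT* mutant, where 258 of 17555 transcripts passed. In WT, 1 rose and 3 fell with 15 libraries, where 5167 of 17464 transcripts passed. *Kr-h1*, a zinc finger factor that mediates juvenile hormone signals, rose in WT by 0.86 (SE 0.12, limma, adjusted p = 0.00430) and fell in the *DAT* mutant by 0.35 (SE 0.09, adjusted p = 0.0400), where the value with 15 libraries was 0.01. On vehicle its level in the *DAT* mutant was above that in WT, with a log2 difference of 0.78 (SE 0.09, adjusted p = 0.00412) that was 0.28 (adjusted p = 0.642) with 15 libraries. The difference between its responses was 1.20 (SE 0.15, adjusted p = 0.0149) with 13 libraries, a test that 0.145% of all transcripts passed, and 0.71 (adjusted p = 0.866) with 15. *srp*, the GATA factor needed for fat body to form, rose in the *DAT* mutant by 0.52 (SE 0.18, adjusted p = 0.0946), and did not pass with 15 libraries (adjusted p = 0.734). *Hr3* was at -0.33 in WT (SE 0.12, adjusted p = 0.0943) and -0.38 in the *DAT* mutant (SE 0.11, adjusted p = 0.0537). With 15 libraries it was at -0.33 (adjusted p = 0.0416) and -0.08 (adjusted p = 0.973). The others that fell were *E23* in WT (-0.38, SE 0.12, adjusted p = 0.0704) and, in the *DAT* mutant, *Eip74EF* (-0.36, SE 0.13, adjusted p = 0.0945) and *Kr-h1*. Of 7 genes for uptake of storage proteins and lipid carriers, 2 rose and 1 fell in WT after AMPH with 13 libraries, and 2 of the 6 tested fell in the *DAT* mutant, again against 22.0% and 22.1% of all transcripts. The one that fell in both was *mgl*, an endocytic receptor of the megalin type, with log2 differences of -0.59 in WT (SE 0.13, adjusted p = 0.0188) and -0.60 in *DAT* mutants (SE 0.12, adjusted p = 0.0119). With 15 libraries no uptake gene passed in the *DAT* mutant, *mgl* being at -0.18 (adjusted p = 0.955), again against 258 of 17555 transcripts. In WT with 15 libraries, 2 rose and 1 fell, *mgl* being at -0.62 (adjusted p = 0.00569), against 5167 of 17464 transcripts.

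The genes whose levels were most like those of *Lsp1beta* were ranked by Pearson's r of log2(RPKM + 1) over the 13 libraries, among 9969 genes. The libraries share groups, so r mostly describes the group pattern and carries no test. The highest was *CG8654* (r = 0.965), which was at 4.70 to 7.40 RPKM in WT vehicle, 1.06 to 1.45 in WT AMPH, 11.8 to 16.9 in *DAT* mutant vehicle and 0.845 to 1.73 in *DAT* mutant AMPH. *CG9918* (r = 0.960), *obst-A* (r = 0.950), *CG9400* (r = 0.947) and *CG11391* (r = 0.943) followed. *obst-A* encodes a chitin-binding protein of the cuticle and was at 6.46 to 15.4 RPKM in WT vehicle and 0.544 to 0.803 RPKM in WT AMPH. In WT vehicle replicate 1, where *Lsp1beta* was at 0.454 RPKM, *CG8654* was at 1.21 RPKM, inside its AMPH range, whereas *obst-A* was at 4.999, *CG9918* at 2.33 and *CG9400* at 6.58 RPKM, above their AMPH ranges. With 15 libraries, r ranged from 0.458 for *CG11391* to 0.936 for *CG8654*.

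**Figure D5:**
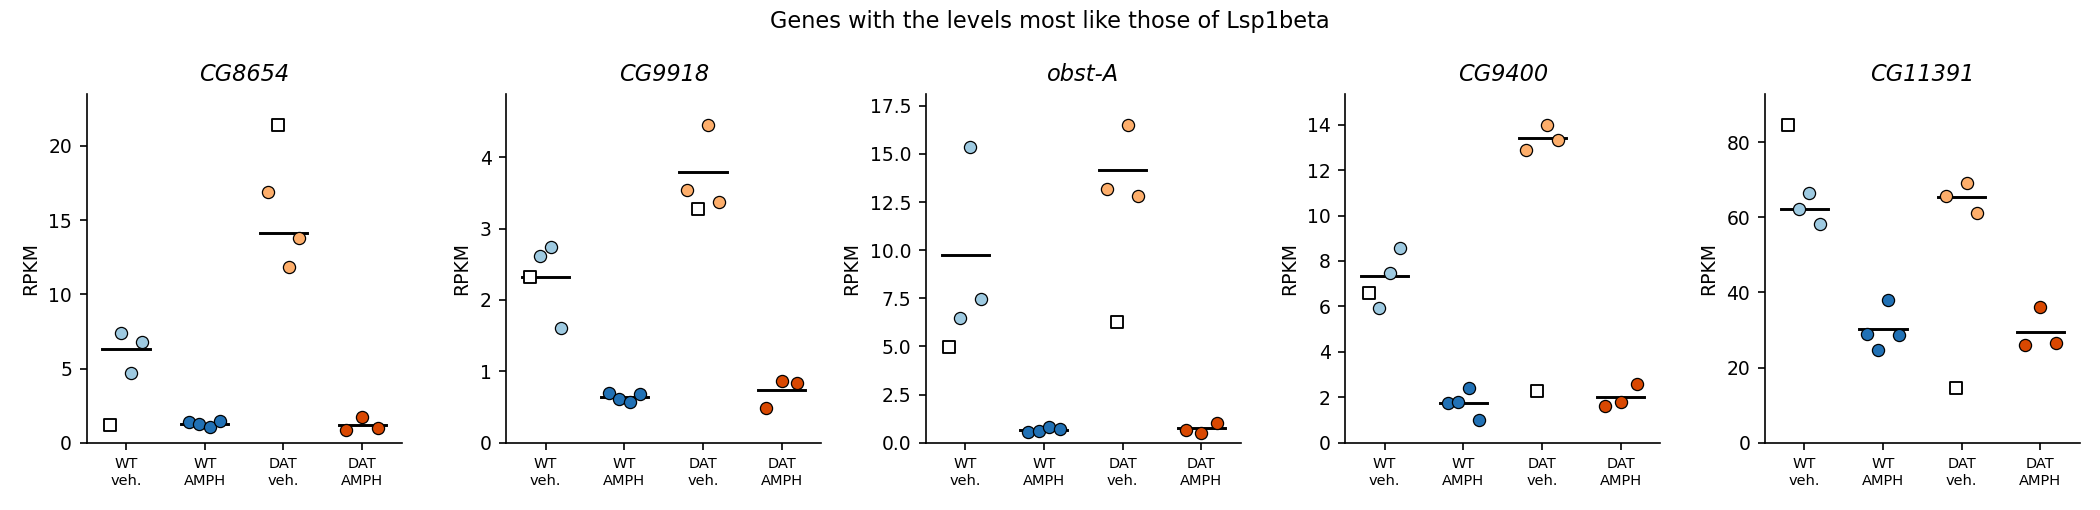
RPKM of the 5 genes with the highest r to *Lsp1beta*, by library and group, with means over the 13 libraries used as bars and the 2 other libraries as white squares. In WT vehicle replicate 1, *CG8654* is at 1.21 RPKM, near its AMPH levels, and *obst-A* is at 4.999 RPKM, above them.

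For *Lsp2*, the highest r were lower, from 0.835 to 0.846 over 13 libraries, for *CG8785*, *CG31286*, *eas* (an ethanolamine kinase), *Hexo1* (a hexosaminidase) and *CG5910*. Of these, *CG31286* was at 3.12 to 4.30 RPKM in WT vehicle, 0.228 to 2.53 in WT AMPH, 3.85 to 6.29 in *DAT* mutant vehicle and 0.535 to 0.783 in *DAT* mutant AMPH. It was at 0.054 RPKM in WT vehicle replicate 1 and 20.03 RPKM in *DAT* mutant vehicle replicate 2, and its r with 15 libraries was 0.837. None of the 5 was among the 5 most like *Lsp1beta*.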

How the data were processed

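Values were the RPKM that the authors deposited, 1 table of 15 libraries, made from Ion Torrent reads of polyA RNA mapped to dm3 with tmap-f3 in Torrent Suite with reads divided by transcript length and depth. Values of the single files and the table were equal. Because RPKM are not counts, limma 3.58.1 in R 4.3.3, with a mean-variance trend, was run on log2(RPKM + 1) over all transcripts that reached 1 RPKM in n or more libraries, n being the size of the smaller group, with Benjamini-Hochberg adjustment and a threshold of 0.1. The count-based test that the study ran, DESeq2, was not used. Each comparison was fitted on its own groups, and the difference between responses on all 4 groups. The 13 libraries were those whose means give the group means of the study's own list to within 4.98e-05 on the log2 scale, next best 0.388 or more. For this match, RPKM were rounded to whole numbers before log2(RPKM + 1) was taken.

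Genes were named by rule: the storage proteins, their relatives, up to 4 genes per list with the lowest adjusted p in a comparison, the 5 genes with the highest r per member, and exceptions stated where they occur. The genes and lists were chosen with earlier results of these data known. Several symbols were matched to older names in the table (*apolpp* as Rfabg, *Gnmt* as CG6188, *Pepck1* as Pepck, *AkhR* as GRHR, *Gpdh1* as Gpdh, *PPO2* as CG8193, *PPO3* as CG42640, *mgl* as CG42611, *Hr3* as Hr46). Read numbers are RPKM times transcript length times the estimated depth, and depth limits the precision of low values only. Samples were separate flies. Limma was tested on simulated data.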

Additional observations from a re-analysis of the deposited data

Results flagged for a closer look

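A gap test at the 95% level was run on 30 groups of 4 libraries, over *Lsp1beta*, *Lsp2*, *Lsp1alpha* and 7 fat body genes. In 4 of these groups a library lay further from the others than the test allows. All 4 were WT vehicle replicate 1 as the lowest of its group. It held *Lsp1beta* at 0.454 RPKM, *AkhR* at 0.897 RPKM, *Gnmt* at 0.468 RPKM and *Gpdh1* at 108.4 RPKM, which for *Gpdh1* compares with 183.8 to 195.0 RPKM in the other WT vehicle libraries. The study's group means leave this library out. Several of the genes looked at were chosen after their values were seen, and all 4 flags rest on 1 library. The usual rate of 1 in 20 for a gap test therefore cannot be set beside 4 of 30.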

How the results depend on the processing

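With all 15 libraries, WT AMPH lay below WT vehicle for 0 of 2 storage protein transcripts in place of 1. Over all transcripts, 258 in place of 3862 passed in the *DAT* mutant after AMPH, and 189 in place of 1478 between strains on vehicle. The fat body genes that passed were 6 in place of 13 in the *DAT* mutant after AMPH, and 0 in place of 3 between strains on vehicle. With all 4 groups in one fit, these fat body counts were 8 and 1, where 3550 and 1379 of 17915 transcripts passed. In that fit 1 storage protein transcript, *Lsp1beta*, passed between strains on vehicle (adjusted p = 0.0629). Its spread came partly from the AMPH libraries, so nothing is read from that pass. The fat body count between strains on vehicle was also 1 with an adjusted p under 0.05, where 793 of 17487 transcripts passed. With RPKM rounded to whole numbers it was 1, where 1149 of 18144 passed. Leaving out 1 library at a time gave 1 to 4 fat body genes and 0 to 1 storage protein transcripts between strains on vehicle. Of all transcripts, 570 of 17659 to 1331 of 17653 passed there. In the difference between responses, leaving out 1 library gave 0 to 1 storage protein transcripts. That count rests on the AMPH values known when the genes were chosen, and nothing is read from it. Without *DAT* mutant AMPH replicate 3, the *Lsp1beta* difference between strains on AMPH turned from -0.13 to 0.03, where leaving out 1 library gave -0.28 to 0.03. This range lacks the fits without WT AMPH replicate 3 or 4, in which *Lsp1beta* was too low to pass the filter of 1 RPKM.

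With the replicate number as a block, the fat body genes that passed after AMPH in WT were 13 in place of 8, where 3680 of 17584 transcripts passed. Between strains on vehicle they were 0 in place of 3, and no storage protein transcript passed, where only 75 of 17487 transcripts did. With this replicate block, *Lsp1beta* differed by 1.51 (SE 0.62, limma, adjusted p = 0.425) and *Lsp2* by 1.48 (SE 0.15, adjusted p = 0.105) between strains on vehicle. The numbers did not pair the libraries: deviations of same-numbered libraries correlated above 0.1 in 3 of 15 pairs. Over all alternatives, the log2 difference of *Lsp1beta* ranged from -4.61 to -2.70 in WT and from -6.54 to -5.12 in the *DAT* mutant, and that of *Lsp2* from -1.40 to -0.15 and from -4.08 to -2.49. The lowest values of *Lsp1beta* in both strains came with a pseudocount of 0.1.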
